A study of Homo sapiens with 5 samples.

Results

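A set of 8 oncofetal genes, out of 14042 gene symbols in the table, was followed in ribosome footprints of HAP1 cells: LIN28A, LIN28B, TRIM71, IGF2BP1, IGF2BP2, IGF2BP3, HMGA1 and HMGA2. They were chosen by symbol as genes of the let-7 pathway and fetal RNA-binding genes, with the row of most counts for each symbol, and each had 1 row. HAP1 is an established near-haploid human line that descends from a chronic myeloid leukaemia line. The 5 libraries form 2 groups by genotype, Wild type (n = 2) and METTL18 knockout (n = 3), and all are HAP1 cells with no treatment named in the labels. METTL18 is a methyltransferase that acts on a histidine of the ribosomal protein RPL3. Footprints are RNA fragments shielded by a ribosome, so the amount of an mRNA and the number of ribosomes per copy both raise a gene's value and cannot be told apart here, nor can the share of cells that express a gene and the level in each cell. The labels do not give the number of clones or cultures, so p-values speak of the spread among these 5 libraries alone, which may be technical, and the knockout and a difference between clones cannot be told apart.

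LIN28A and LIN28B are small RNA-binding proteins, made mainly in the embryo, that bind precursors of the microRNA let-7 and hold it back. LIN28A recruits the uridylyl transferases TUT4 and TUT7, and the exonuclease DIS3L2 degrades the tailed RNA. Mature let-7 in turn represses mRNAs that carry its seed match, among them LIN28B, TRIM71, the IGF2BP genes and HMGA2, so LIN28 and let-7 oppose each other as development proceeds. TRIM71 is a RING and NHL domain protein that represses mRNAs, the IGF2BP proteins are KH-domain proteins that bind and stabilise mRNAs, and the HMGA proteins bind AT-rich DNA through AT-hooks.

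The sequences through which let-7 and these genes meet are shown first. RefSeq (GRCh38.p14) gave 9 distinct mature let-7 and miR-98 sequences of the 5p arm, and all 9 have the same seed, bases 2 to 8, in capitals here. Their other bases differ at a few places, as these show, each with the position of 1 gene copy.
let-7a-5p (chr9:94175962-94175983, plus strand): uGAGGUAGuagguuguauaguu
let-7g-5p (chr3:52268336-52268357, minus strand): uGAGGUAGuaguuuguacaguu
let-7i-5p (chr12:62603691-62603712, plus strand): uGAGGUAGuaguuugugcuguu
miR-98-5p (chrX:53556299-53556320, minus strand): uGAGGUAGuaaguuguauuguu
The zinc knuckles of LIN28 recognise GGAG in the loop of the precursor. Of 12 let-7 and miR-98 hairpins in RefSeq, 9 held GGAG on the RNA strand after the 5p arm, and 43.4% of all 1562 human hairpins held it anywhere. A hairpin with it (in capitals) and one without it are shown to make the difference visible.
MIRLET7G (chr3:52268278-52268361, minus strand): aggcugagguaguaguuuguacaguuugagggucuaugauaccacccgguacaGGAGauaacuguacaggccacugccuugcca
MIRLET7A3 (chr22:46112749-46112822, plus strand): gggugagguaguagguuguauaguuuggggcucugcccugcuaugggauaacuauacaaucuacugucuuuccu
No microRNA was measured in these libraries.

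Every one of the 8 genes had at least 1 match to the let-7 seed in the 3′ UTR of its counted transcript in GENCODE 29. Since the genes were chosen as let-7 pathway genes, this describes the choice and is no result of the libraries. The motifs searched, on the mRNA strand alone, were the 7 bases CTACCTC and the 8 bases CTACCTCA, which contains the first. The first 8-base match of each gene, or for HMGA1 the 7-base match, is printed in capitals with the 20 bases before it.
LIN28A (chr1:26427343-26427370, plus strand): ggagtgcacagcctattgaaCTACCTCA
LIN28B (chr6:105078807-105078834, plus strand): cctttacccggttgcaaagtCTACCTCA
TRIM71 (chr3:32891963-32891990, plus strand): agtacaacattgcttaagtcCTACCTCA
IGF2BP1 (chr17:49051056-49051083, plus strand): aatgctgtgtgcgaagtaaaCTACCTCA
IGF2BP2 (chr3:185644220-185644247, minus strand): agaaaaacacacagaagaagCTACCTCA
IGF2BP3 (chr7:23311795-23311822, minus strand): aaacgtgcatttttactcaaCTACCTCA
HMGA1 (chr6:34245824-34245850, plus strand): atttttcctctgttcacaaaCTACCTC
HMGA2 (chr12:65963293-65963320, plus strand): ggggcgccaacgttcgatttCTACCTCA

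The number of matches differed between the genes. TRIM71 had 6 matches of 7 bases, 4 of them of 8 bases, in a 3′ UTR of 6015 bases. At least that many 7-base matches occurred in 0.162% of the 616 UTRs within 20% of its length, a share that is TRIM71 alone. This set of UTRs, like those below, includes the gene itself and can include others of the 8. IGF2BP1 had 4 and 3 in 6206 bases (0.714% of 560 UTRs had at least 4), LIN28B 4 and 2 in 4549 bases (0.29% of 1035) and HMGA2 4 and 1 in 3003 bases (0.134% of 1497). LIN28A, IGF2BP2 and IGF2BP3 each had a single match, of 8 bases, and HMGA1 a single match of 7 bases. At the length of LIN28A, 16.4% of 1418 UTRs held 1 or more 7-base matches, at that of IGF2BP2 11.3% of 1808, at that of IGF2BP3 11.9% of 1721 and at that of HMGA1 8.3% of 1776. These are letters in annotated transcripts, and which 3′ ends HAP1 cells use was not measured.

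**Figure D1:**
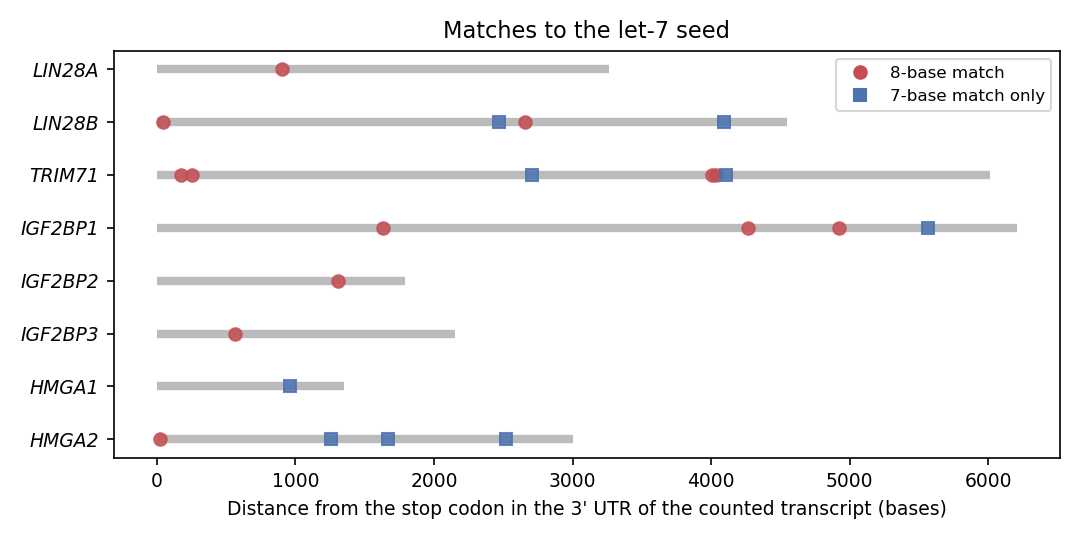
Matches to the let-7 seed along the 3′ UTR of each gene's counted transcript, with the distance from the stop codon in bases on the horizontal axis, grey bars for the UTR, circles for 8-base and squares for 7-base matches. TRIM71, IGF2BP1, LIN28B and HMGA2 carry 4 to 6 matches and the other 4 genes 1 each.

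Depth was 4887380 and 5302160 counts for wild-type and 16339574 to 17629199 for knockout libraries, so that it ran with the groups. METTL18 itself had 33 and 32 counts in wild-type libraries against 33, 32 and 34 in the deeper knockout ones, 5.70 ± 0.211 CPM (SD, n = 2) against 2.10 ± 0.117 CPM (SD, n = 3). Levels are CPM, counts scaled by depth with TMM factors between libraries, and a positive log2 fold change means higher in the knockout. Of 11 genes listed as blood-lineage markers or as partners of the fusion gene of this line, PTPRC, SPI1, GATA1, HBG1 and HBG2 were not analysed here, and CD33 had 0 counts in all 5 libraries. CD34 had 2 counts in each wild-type library and 0 in every knockout library, and ITGAM had 0 against 3, 4 and 2. KIT stood at 11.1 ± 1.15 CPM (wild type) and 7.81 ± 0.687 CPM (knockout). BCR, a partner in the fusion, stood at 6.68 ± 0.64 and 8.10 ± 0.392 CPM, and ABL1, the other partner, at 1.12 ± 0.554 and 4.79 ± 0.31 CPM.

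In the knockout libraries 7 of the 8 genes were higher and IGF2BP2 was slightly lower. The gap was widest for LIN28A, LIN28B and TRIM71, and smaller for IGF2BP1, IGF2BP3, HMGA2 and HMGA1. All 8 passed the low-count filter, LIN28A through the knockout libraries alone. All 8 also passed the threshold, an edgeR quasi-likelihood p under 0.05 once adjusted (Benjamini-Hochberg) over all 11335 genes tested. LIN28A is part of this count and of those below. Its call is no separate support, since only the knockout libraries brought it past the filter. Over all genes, 74.4% passed, 37.8% as higher and 36.6% as lower, so a call is common in this comparison. By size, 6 of the 8 were called and at least 2-fold higher, beside 12.8% of all genes, and 3 were at least 4-fold higher, beside 4.43%. The 2-fold count depends on the scaling. With counts scaled by the library total alone, IGF2BP1 (0.99), IGF2BP3 (0.82) and HMGA2 (0.97) were under 2-fold in log2 fold change. When a fold above 1.5 was required 6 of the 8 passed as higher, beside 17.7% of all genes. Their median log2 fold change was 1.25, also with LIN28A at its lower bound, beside 0.0161 over all genes. The knockout values lay above all wild-type values for 7 of the 8, as they did for 42.5% of genes tested, and with IGF2BP2, whose values lay below, the groups stood apart for all 8, beside 83.5% of genes in either direction. The genes were picked with earlier results of these data known, so these counts describe them and are no independent support.

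**Figure D2:**
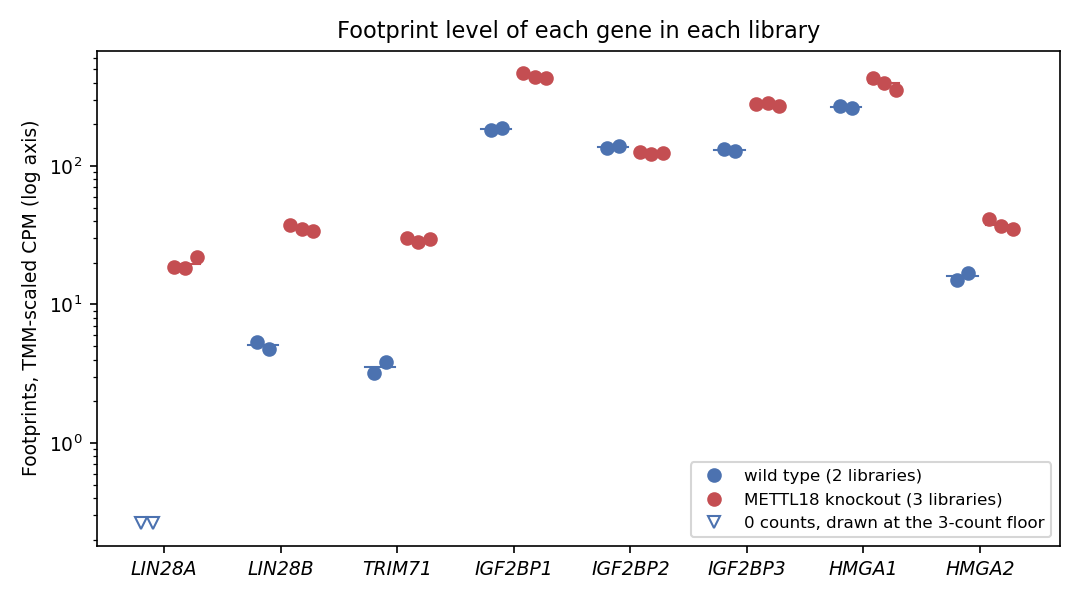
Footprint level of each gene in each library as TMM-scaled CPM on a log axis, wild type in blue (2 libraries) and METTL18 knockout in red (3 libraries), short lines for group means and open triangles for 0 counts drawn at the floor of 3 counts. Red points lie above blue points for every gene other than IGF2BP2, where they lie just below.

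**Figure D3:**
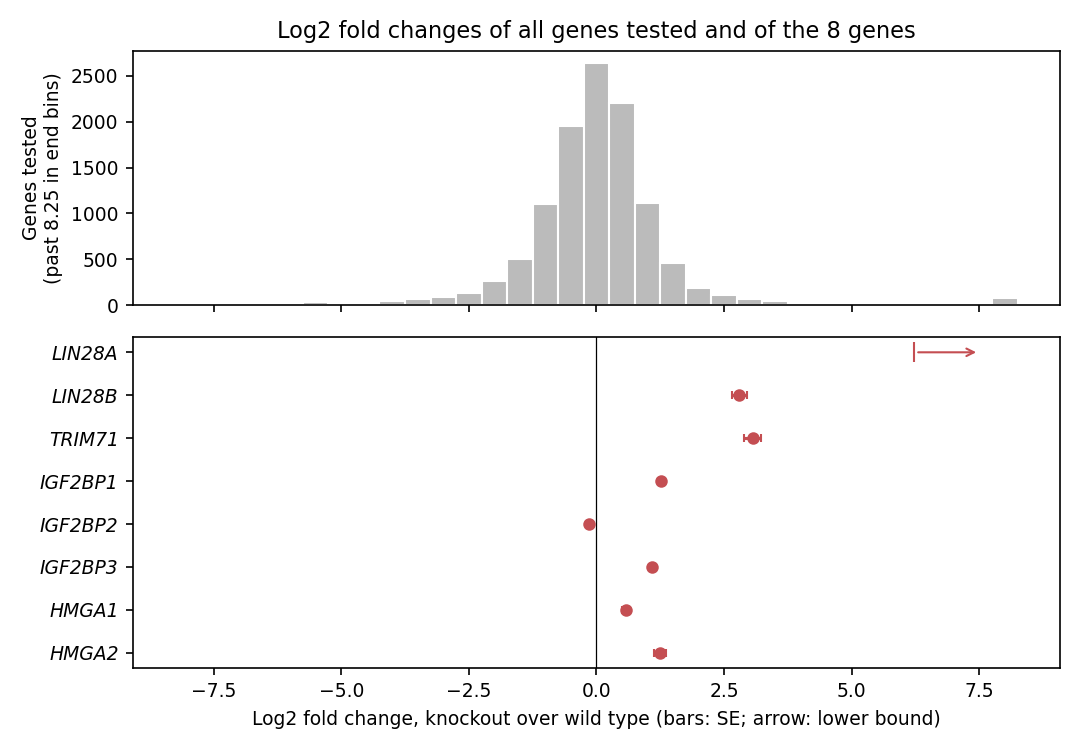
Histogram of log2 fold changes of the 11335 genes tested (above, values past the ends in the end bins) and the values of the 8 genes (below, bars are SE, the arrow marks the lower bound for LIN28A). The 8 genes run from -0.14 for IGF2BP2 to 3.06 for TRIM71, with LIN28A beyond.

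LIN28A went from no footprints to a clear level. Its row (ENST00000326279, hg38 chr1:26410778-26429722, plus strand) held 0 counts in each wild-type library and 281, 297 and 346 in the knockout libraries. That is 18.5, 18.2 and 21.9 CPM, with replicate 3 the highest, a mean of 19.6 ± 2.06 CPM (SD, n = 3). With the wild-type group set to a floor of 3 counts in all, which is 0.263 CPM, LIN28A was at least 74.5-fold higher. No p is given, since the gene passed the low-count filter through the knockout libraries alone. Any wild-type level under that floor was not detectable at this depth. The 3 genes whose log2 CPM over the 5 libraries, centred on each gene's mean, lay nearest to LIN28A were SNX19, TKTL1 and GLYATL2, at Euclidean distances of 0.205, 0.215 and 0.321. SNX19 had 0 counts in each wild-type library and 298 to 346 knockout counts, and GLYATL2 0 and 242 to 269. TKTL1 had 5 and 4 wild-type counts and 1697 to 1774 knockout counts.

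LIN28B, the paralogue that many tumours re-express, was already present in the wild type and was higher in the knockout. The row (ENST00000345080, chr6:104957048-105083332, plus strand) held 32 and 26 counts, 5.39 and 4.76 CPM, in the wild type. The knockout libraries held 572, 572 and 533 counts, 37.8, 35.1 and 33.8 CPM. The groups were far apart: the log2 fold change was 2.80 (SE 0.147; edgeR adjusted p = 1.35e-20), a 6.98-fold difference.

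TRIM71, a target of let-7 in worms and vertebrates, showed a gap of similar size. Its row (ENST00000383763, chr3:32818018-32897826, plus strand) held 19 and 21 counts, 3.20 and 3.84 CPM, in wild-type libraries, and 456, 459 and 468 counts, 30.1, 28.2 and 29.7 CPM, in knockout libraries. The log2 fold change was 3.06 (SE 0.165; edgeR adjusted p = 3.57e-20), 8.34-fold. The ratio of LIN28B to TRIM71 footprints per coding kilobase, which does not depend on scaling between libraries, was 5.83 and 4.29 in wild-type libraries and 4.34, 4.31 and 3.94 in knockout libraries, and the groups overlapped.

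LIN28 footprints came from both paralogues in the knockout. Taking counts per coding kilobase, LIN28A made up 37.0%, 38.3% and 43.7% of the pair in the 3 knockout libraries. In the wild type it was 0 of 58 LIN28 counts, which at the floor of 3 counts allows up to 5.17% of counts (95% Clopper-Pearson upper limit 6.16%). Of 2601 LIN28 counts in the knockout 35.5% were LIN28A (95% Clopper-Pearson interval 33.7 to 37.4). The summed level of the pair per coding kilobase was 6.73 ± 0.593 CPM for wild-type and 78.3 ± 2.34 CPM for knockout libraries, an 11.6-fold ratio. Coding sequences of LIN28A and LIN28B share 16.4% and 12.4% of their windows of 28 bases with transcripts annotated under other gene names, LIN28AP1 among them, and the sources used here do not say how such reads were counted.

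Within the IGF2BP family the paralogues parted. IGF2BP1, which binds and shields mRNAs such as that of MYC, held 1088 and 1030 counts in the wild type, 183 and 188 CPM (ENST00000290341, chr17:48997412-49055650, plus strand). The knockout libraries held 7088, 7139 and 6785 counts, 468, 438 and 430.4 CPM. All lay above both wild-type values, with a log2 fold change of 1.26 (SE 0.0496; edgeR adjusted p = 5.71e-25). IGF2BP3, the paralogue best known as a tumour antigen, rose from 133 and 128 CPM to 280.3, 284 and 271 CPM (ENST00000258729, chr7:23310209-23470467, minus strand). Its log2 fold change was 1.09 (SE 0.0522; edgeR adjusted p = 5.46e-22).

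IGF2BP2, the family member that persists in many adult tissues, did not share that gap. Wild-type libraries stood at 134 and 139.7 CPM and knockout libraries at 126, 123 and 124 CPM (ENST00000382199, chr3:185643739-185825056, minus strand). The groups did not overlap, but the log2 fold change was only -0.14 (SE 0.0546; edgeR adjusted p = 0.0227). The call was lost when knockout counts were thinned to wild-type depth (-0.08, edgeR adjusted p = 0.403), without wild type replicate 2 (-0.11, edgeR adjusted p = 0.185) and without a low-count filter (-0.11, edgeR adjusted p = 0.0699). With total-count scaling it was -0.41.

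The make-up of the family therefore differed between groups. Per coding kilobase, IGF2BP2 made up 29.0% and 29.9% of the wild-type IGF2BP footprints and 13.9%, 14.1% and 14.6% of the knockout ones. IGF2BP1 made up 41.2% and 41.8% against 53.9%, 52.2% and 52.5%, and IGF2BP3 29.8% and 28.3% against 32.2%, 33.7% and 32.9%. The ratio of IGF2BP1 to IGF2BP2 was 1.42 and 1.40 in wild-type libraries and 3.87, 3.69 and 3.59 in knockout libraries. No value of the knockout overlapped the wild type in any of these shares. The differences in share were -15.2, 11.4 and 3.86 percentage points for IGF2BP2, IGF2BP1 and IGF2BP3. An exact two-sided permutation test gave p = 0.1 for each, which is the smallest p that 2 against 3 libraries allow, and 0.1 also after adjustment over the 5 shares tested. Summed over the family, the level per coding kilobase was 258 ± 2.31 CPM for wild-type and 486 ± 13.8 CPM for knockout libraries. Windows of 28 bases shared with transcripts under other gene names made up 44.8% of the coding sequence of IGF2BP3, 49.2% of that of IGF2BP2 and none of the 1707 windows of IGF2BP1.

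HMGA1, an architectural chromatin protein common in dividing cells, showed the smallest gap among the genes that were higher. Wild-type libraries stood at 271 and 262 CPM and knockout libraries at 430.2, 397 and 356 CPM (ENST00000311487, chr6:34236873-34246231, plus strand). Replicate 3 of the knockout was lowest, and the knockout spread of 37.1 CPM was the widest of the 8 genes in CPM. Relative to the knockout mean it was 9.41%, beside 10.5% for LIN28A and 9.09% for HMGA2. The log2 fold change was 0.57 (SE 0.0612; edgeR adjusted p = 2.38e-08). It did not pass when a fold above 1.5 was required, and it was 0.29 with total-count scaling. Of its coding windows of 28 bases 61.3% also occurred in transcripts of other genes, mostly HMGA1 pseudogenes, so its count is uncertain.

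HMGA2, the fetal paralogue and a textbook target of let-7, was lower in level and wider in gap. It held 90 and 92 counts, 15.1 and 16.8 CPM, in the wild type, and 629, 604 and 548 counts, 41.5, 37.1 and 34.8 CPM, in the knockout (ENST00000403681, chr12:65824131-65966295, plus strand). The log2 fold change was 1.24 (SE 0.114; edgeR adjusted p = 6.73e-13). None of its 303 coding windows occurred in transcripts of other genes. HMGA2 made up 5.21% and 5.93% of HMGA footprints per coding kilobase in wild-type libraries and 8.66%, 8.40% and 8.75% in knockout libraries, a difference of 3.03 percentage points (exact two-sided permutation p = 0.1).

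**Figure D4:**
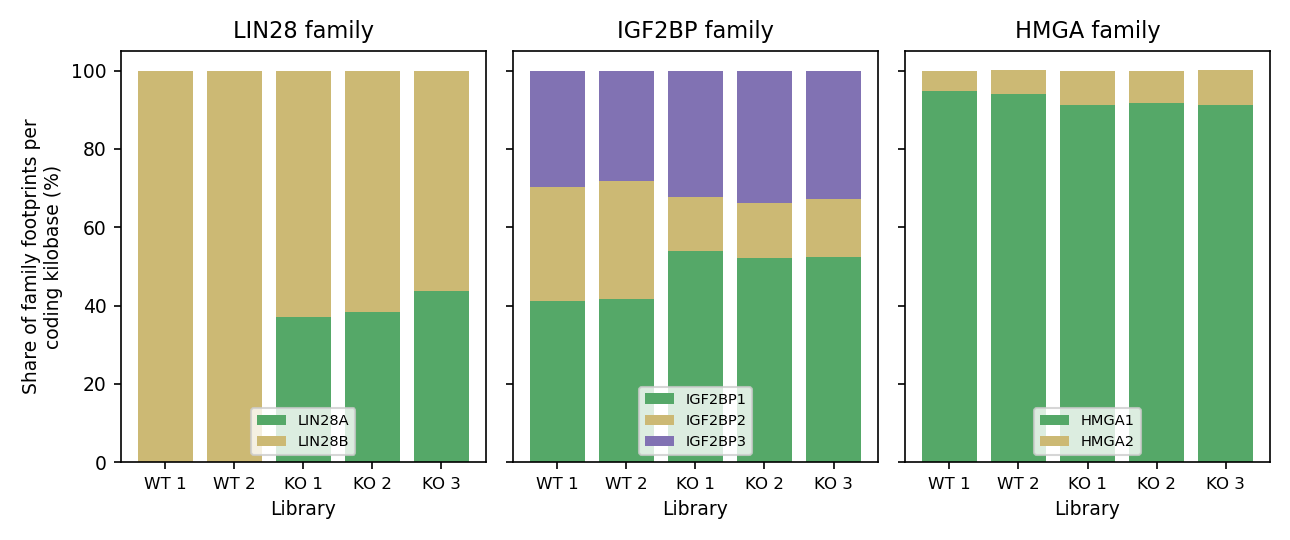
Share of each paralogue in its family's footprints per coding kilobase, in percent, for each wild-type (WT) and knockout (KO) library. The IGF2BP2 segment is 29.0% and 29.9% of wild-type bars and 13.9% to 14.6% of knockout bars, and LIN28A is present in the knockout bars alone.

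Ordered by CPM per coding kilobase, HMGA1 was highest in both groups, at 822 ± 19.5 for wild-type and 1218 ± 115 for knockout libraries. IGF2BP1 was next, at 107 ± 2.14 and 257 ± 11.4. In the wild type IGF2BP2 (76.0 ± 2.26) and IGF2BP3 (75.0 ± 2.08) followed and overlapped each other, then HMGA2 (48.4 ± 3.59), LIN28B (6.73 ± 0.593) and TRIM71 (1.35 ± 0.174), with LIN28A at 0. In the knockout the order was IGF2BP3 (160 ± 3.76), HMGA2 (115 ± 10.4), IGF2BP2 (69.1 ± 0.635), LIN28B (47.2 ± 2.67), LIN28A (31.1 ± 3.26) and TRIM71 (11.2 ± 0.385), and no neighbours overlapped. IGF2BP2 thus moved from the third place to the fifth, and LIN28A from the last to the seventh.

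The lists of genes around the 8 are set beside all genes tested, of which 37.8% rose and 36.6% fell with a median log2 fold change of 0.0161. With total-count scaling 2982 of the 11335 genes tested rose and 5597 fell, and that median was -0.25. Of 14 measured genes of microRNA processing and the Argonaute proteins, 7 fell, 3 rose (21.4%, beside 37.8% of all genes) and 4 did not pass, with a median log2 fold change of -0.23. The median was -0.13 without wild type replicate 1, and with total-count scaling 1 rose, 9 fell and the median was -0.51. RAN, the GTPase of nuclear transport, rose (0.80), while the pre-microRNA exporter XPO5 (-0.59), the Dicer partner PRKRA (-0.69) and AGO4 (-1.48) fell. DICER1 (-0.39) and DROSHA (-0.44), named after their values were seen, fell as well. Of 9 genes listed for tailing, decay or binding of let-7 precursors, 6 rose (66.7%, beside 37.8% of all genes), 2 fell and 1 did not pass, with a median of 0.33. Whether each of them acts on let-7 in these cells was not tested. With total-count scaling 3 rose, 3 fell and the median was 0.06. TUT4, which adds uridines to let-7 precursors held by LIN28A, fell from 108 ± 10.8 to 65.5 ± 2.39 CPM (-0.72). The let-7 binding protein HNRNPA1 (1.18), the LIN28A cofactor TRIM25 (0.77) and TUT1 (1.04) rose. TUT7, named after its value was seen, rose by 0.47, and DIS3L2, named likewise, stood at 42.7 ± 0.893 and 39.3 ± 1.72 CPM and did not pass.

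Reported let-7 targets outside the 8 genes moved both ways. Of 27 tested, 15 rose, 5 fell and 7 did not pass, which is 55.6% higher beside 37.8% of all genes, and the median log2 fold change was 0.21. With a fold above 1.5 required 6 of the 27 rose, beside 17.7% of all genes, and 3 fell. With total-count scaling 11 rose, 11 fell and the median was -0.06. Over all genes that scaling gave 2982 higher, 5597 lower and a median of -0.25. MYC (1.01) and the phosphatase CDC25A (1.00) rose, and the death receptor FAS (-3.00) and cyclin CCND2 (-0.98) fell. ARID3A, named after its value was seen, rose by 1.67. THBS1 did not pass the low-count filter, and MYCN, among those that rose, passed it through the knockout libraries alone. Of all 11195 tested genes with an annotated 3′ UTR, 1123 had a 7-base match, those within 8-base matches included, and of these 37.0% rose and 36.8% fell, with a median of -0.01, so they stood near all genes. An 8-base match was present in 3.8%, and of these 423 genes 41.8% rose and 32.4% fell, beside 37.7% and 36.7% of all. Their median log2 fold change was 0.10, beside 0.01, and their median UTR was 3021 bases long, beside 1154. Among genes with 3 or more 8-base matches, TRIM71 (3.06), IGF2BP1 (1.26), FIGN (1.63) and IGDCC3 (1.40) rose and SMC1A fell (-1.28), the last 3 named after their values were seen.

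Of 15 reported client mRNAs of the IGF2BP proteins tested, 6 rose, 5 fell and 4 did not pass. The 40% that rose stood near the 37.8% of all genes. The median was 0.09, -0.19 with total-count scaling and -0.02 without wild type replicate 1, and 3 fell without wild type replicate 2. PEG10, an imprinted retrotransposon-derived gene, rose from 358 ± 12.9 to 1425 ± 45.2 CPM (1.99), CD44 from 14.9 ± 1.37 to 62.6 ± 4.21 CPM (2.07), MYC by 1.01 and ACTB by 0.79. IGF2, after which the family is named, had 6 and 8 wild-type counts and 15, 9 and 13 knockout counts and did not pass. Of 16 partners of these proteins and factors of the RNA mark m6A that they read, 12 rose (75%, beside 37.8% of all genes), 2 fell and 2 did not pass, with a median of 0.68. With total-count scaling 11 rose and 4 fell, with a median of 0.41, and 1 fell without wild type replicate 2, without knockout replicate 2, without a low-count filter or with DESeq2. MATR3 (1.07), PABPC1 (1.07), the m6A reader YTHDF3 (1.06) and the helicase DHX9 (0.75) rose.

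Of 9 other high mobility group genes, 8 rose (88.9%, beside 37.8% of all genes) and the remaining 1 did not pass, with a median of 0.47. With total-count scaling 4 rose, 2 fell and the median was 0.20. HMGN3 (0.95), HMGN4 (0.83) and HMG20B (0.78) rose. Of 10 other fetal growth and oncofetal genes, 6 rose (60%, beside 37.8% of all genes), 1 fell and 3 did not pass, with a median of 0.81, also with SALL4 at its bound. The median was 0.54 with total-count scaling and 0.55 without knockout replicate 2, and with a mean of at least 10 CPM required, fewer genes were tested and 2 rose. PEG3 and PLAGL1 did not pass the low-count filter. MYCN and SALL4, both among those that rose, passed it through the knockout libraries alone. MYCN, a let-7 target and partner of LIN28B in neuroblastoma, held 1 and 2 wild-type counts and 96, 126 and 124 knockout counts. Their scaled ratio was 27.9, and its 95% interval from counting error ran from 9.46 to 136. The surface proteoglycan GPC3 rose by 0.56 and the receptor IGF2R fell (-0.83). SALL4, named after its value was seen, had 0 wild-type counts and 11, 13 and 6 knockout counts, at least 2.41-fold higher than the floor.

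**Figure D5:**
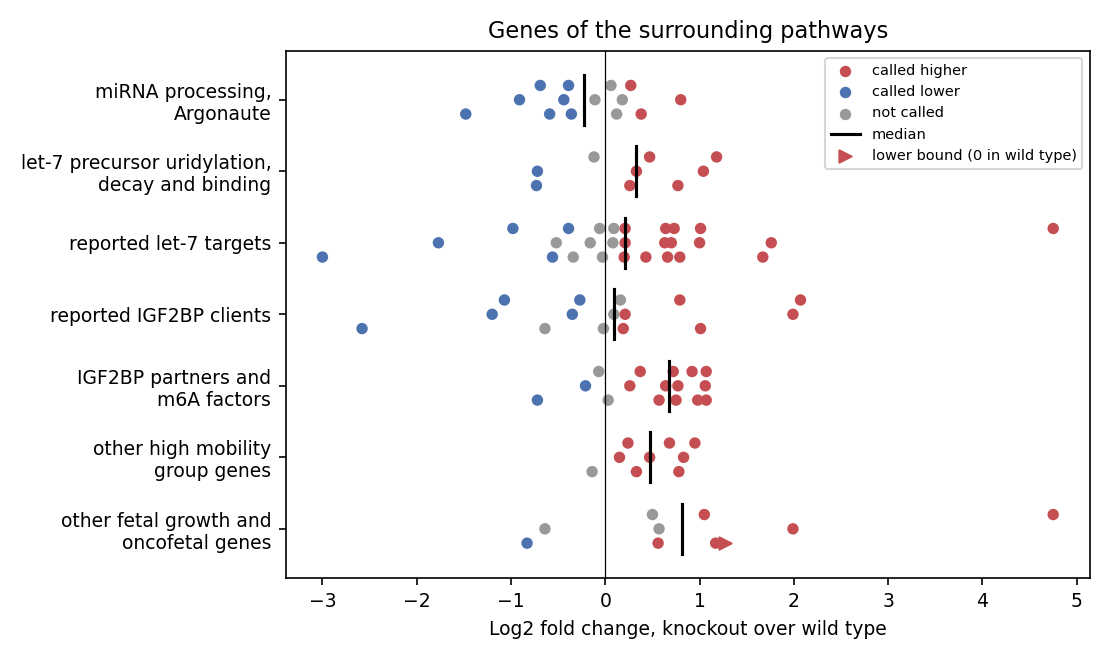
Log2 fold changes, knockout over wild type, of the tested genes of 7 lists around the 8 genes, coloured by call (adjusted p under 0.05, edgeR), with black lines for medians and a triangle for a lower bound. Medians run from -0.23 for microRNA processing to 0.81 for other fetal growth and oncofetal genes.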

How the data were processed

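Ribosome footprints of 5 HAP1 libraries were analysed. The table the authors deposited holds raw counts, 14084 rows that each pair a transcript with a symbol. Per the submitters' processing notes, Bowtie and hg38 were used. The sources used here do not name the version, the annotation, the counting tool, the treatment of reads that match several places, or whether the random adapter bases served to remove duplicates. Intervals and floors therefore cover counting error alone. The molecule is labelled polyA RNA, although the protocol describes footprints. GENCODE 29, on the same build, gave coding lengths and UTRs for 99.1% of rows.

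The fit used edgeR 4.0.16 (R 4.3.3) with robust quasi-likelihood, TMM factors and filterByExpr (at least 10 counts, total at least 15), and genotype was its only term. The SE is the log2 fold change over the root of F. The fit was tested on simulated data with far fewer changed genes than were called here, split evenly between higher and lower. That simulation did not test the scaling between libraries at the share of calls seen here. Alternatives were RLE and total-count scaling, DESeq2 1.42.0, limma-voom 3.58.1, other filters, a required fold of 1.5, thinning, the replicate block and each library left out. The 8 genes and the lists were chosen with earlier results of these data known. Genes named were the 8, METTL18, up to 4 genes past the threshold with the smallest adjusted p in each list, and the 3 nearest to the gene of largest change; some of them are not reported here. CTNNB1, RBM15, ELAVL1, HMGB1, HMGB2, HMGN2, NAP1L1, BACH1, AFP and TPBG of the lists were not analysed here. Shares within a family are counts per coding kilobase within a library.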

Additional observations from a re-analysis of the deposited data

How the results depend on the processing

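LIN28B, TRIM71, IGF2BP1, IGF2BP3 and HMGA2 were called higher under all 14 alternatives. With total-count scaling IGF2BP1 (0.99), IGF2BP3 (0.82) and HMGA2 (0.97) were called but under 2-fold. HMGA1 was called under all but a required fold of 1.5 (adjusted p = 0.662, edgeR glmTreat), with log2 fold changes of 0.29 to 0.64. IGF2BP2 was lower under all 14 (-0.41 to -0.08) but not called under 4, the fourth being the required fold. The fitted LIN28A value ran from 7.80 to 11.02 and depends on the prior count. With a fold above 1.5 required, 4140 genes passed, 2011 higher and 2129 lower, and 6 of the 8 genes. The lists then shrank, beside 17.7% of all genes higher. Of 9 let-7 precursor genes 3 rose and 1 fell, and of 16 IGF2BP partners and m6A factors 6 rose and 1 fell. Of 9 other high mobility group genes 3 rose and 0 fell, and of 10 fetal genes 4 rose and 1 fell. Of 14 microRNA processing genes 1 rose and 2 fell, and of 15 IGF2BP clients 4 rose and 2 fell. Total-count scaling moved the median of all genes to -0.25 and the calls from 4288 higher and 4143 lower to 2982 and 5597. With that scaling the median of reported let-7 targets was -0.06 and that of IGF2BP clients -0.19, and with single libraries left out the latter ran from -0.02, without wild type replicate 1, to 0.13. As a share of counts in place of counts per kilobase, the LIN28A difference was 35.5 percentage points. With thinned knockout libraries the IGF2BP3 difference was 2.67 and the HMGA2 difference 3.61 percentage points. The labels share replicate numbers across groups, and the deviations of equal numbers had correlations of 0.00853 and 0.0231. Both values rest on the same difference between the 2 wild-type libraries, so they cannot decide whether equal numbers share a batch. With the replicate block 8476 genes passed, and all 8 of these genes. With 1 wild-type library left, that library is assumed to vary like the knockout ones. Depth limits LIN28A, SALL4 and MYCN in the wild type, where 0 to 3 counts were seen.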
